A study of Mus musculus with 16 samples.

Results

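Bortezomib at 135 min was compared with the untreated state in NIH3T3 cells, a mouse embryonic fibroblast line, using all 4 libraries titled as 135 min of bortezomib and all 4 titled as control at 0 min, which are 8 of the 16 libraries of the series. Cells of both groups carried a stable transgene for DD-sfGFP, a destabilizing domain derived from the prolyl isomerase FKBP12 and fused to superfolder green fluorescent protein, and had been sorted for high fluorescence. The domain is folded when bound to the ligand Shield-1, which the study kept in the culture medium except where it was withdrawn as the stress. The paper does not state whether the ligand was present during bortezomib treatment. The control cells received no stress, and the treated cells were harvested 135 min after addition of bortezomib, whose dose is not in the labels. Vehicle-treated cells at 135 min were not analysed here, so drug and elapsed time cannot be told apart. Nothing in the labels says that the replicates came from separate cultures, so the p-values below measure the spread between these libraries, which may be technical.

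Bortezomib blocks the chymotrypsin-like site of the proteasome, the protease that degrades proteins tagged with ubiquitin. Cells in which proteasomes are blocked are known to accumulate misfolded and short-lived proteins. Several transcription programs are known to respond to this. Hsf1 drives genes for cytosolic chaperones, Nfe2l1 (Nrf1) drives genes for proteasome subunits, Nfe2l2 (Nrf2) drives antioxidant genes, Atf4 drives the integrated stress response, and p53, itself a proteasome substrate, drives its own target genes.

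The libraries at 135 min did not form 1 group. Genes with symbols of the ribosomal protein type (Rpl or Rps and a digit, 97 symbols) took 8.48% of the fragments in 135 min replicate 1 (95% Wilson interval 8.45% to 8.51%) and 6.17% in replicate 2 (6.15% to 6.19%). The same genes took 0.579% in replicate 3 (0.56% to 0.6%) and 0.435% in replicate 4 (0.421% to 0.449%). In the controls the share was 0.541%, 1.21%, 0.441% and 0.398% for replicates 1 to 4, so treated replicates 3 and 4 lay within the range of the controls, and replicates 1 and 2 lay above 4% and above every control. The control mean was 0.648 ± 0.379% and the treated mean 3.92 ± 4.05% (SD, n = 4 in either group), a difference of 3.27 percentage points, for which no test is given because the comparison was chosen with these shares known. The difference was 1.75 without treated replicate 1 and 4.43 without replicate 4, the lowest and highest values with 1 library left out. Of the 97 symbols, 16 belong to S6 kinases, binding proteins or pseudogenes, and the 81 ribosomal protein symbols alone took 8.44%, 6.11%, 0.523% and 0.404% at 135 min.

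Genes that a fibroblast should not express had the opposite order. Olfactory and vomeronasal receptor genes (1438 symbols) took 0.364% and 1.42% of fragments in 135 min replicates 1 and 2. They took 4.88% and 4.81% in replicates 3 and 4, beside 4.14% to 5.0% in the controls. The difference of means was -1.81 percentage points, again without a test, as these shares ran opposite to the known ribosomal protein shares. With 1 library left out this difference ranged from -2.48 without treated replicate 3 to -0.973 without replicate 1. Zfp488, a zinc finger gene, held more fragments than any other gene in each control and in 135 min replicates 2, 3 and 4, and its share was 4.53% to 5.33% in the controls, 4.57% and 4.95% in treated replicates 3 and 4, and 0.383% and 1.56% in replicates 1 and 2. In replicate 1 the leading gene was Malat1, a nuclear noncoding RNA.

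The 12 fibroblast markers, among them the collagen genes Col1a1 and Col1a2, fibronectin (Fn1) and vimentin (Vim), summed to 1.33% and 1.5% of fragments in 135 min replicates 1 and 2. Their sum was 0.0489% and 0.0576% in replicates 3 and 4 and 0.0405% to 0.189% in the controls. None of the 12 was at 0 in a control or in treated replicates 1 and 2, whereas 2 were at 0 in replicate 3 and 1 in replicate 4. In the 6 libraries other than treated replicates 1 and 2, the labelled cell type was thus represented by a small share of fragments. Markers of 5 other cell types (epithelial, leukocyte, neuronal, hepatocyte and erythroid) each summed to between 0.000698% and 0.0375% of fragments in a library. For all 5 the sums were lower in treated replicates 1 and 2 than in each of the other 6 libraries. In 135 min replicate 3 the hepatocyte markers summed to 0.0375%, beside 0.0489% for the fibroblast markers. The largest such sums in control replicates 1 to 4 were 0.0289% (hepatocyte), 0.0294% (neuronal), 0.0293% (neuronal) and 0.0239% (hepatocyte). The fibroblast sums beside them were 0.0775%, 0.189%, 0.0542% and 0.0405%. The fibroblast list holds 12 genes and each of the other lists 6 or fewer, so the sums are not of like lists. Of the 6 epithelial markers, which lay between 0.000698% and 0.0217%, 5 were at 0 in 135 min replicate 1.

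Depth went with these shares in part. The controls held 861482 to 891245 fragments assigned to genes, and the treated libraries 3154062, 4637812, 570323 and 880609 for replicates 1 to 4. Between 6.71% and 27.7% of genes were at 0 in the controls, against 49.5%, 5.76%, 47.5% and 32.8% at 135 min. Over 6606 genes with at least 1 fragment in each of the 8 libraries, treated replicates 1 and 2 correlated with each other with r = 0.787 and with replicates 3 and 4 with r = 0.02 to 0.21, while replicates 3 and 4 correlated with each other with r = 0.34 and with the controls with r = 0.362 to 0.598. These are correlations across genes of log2 values, and genes are not independent replicates. What set the 2 kinds of treated library apart was not tested. The values of replicates 1 and 2 and of replicates 3 and 4 are therefore set apart in what follows.

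**Figure D1:**
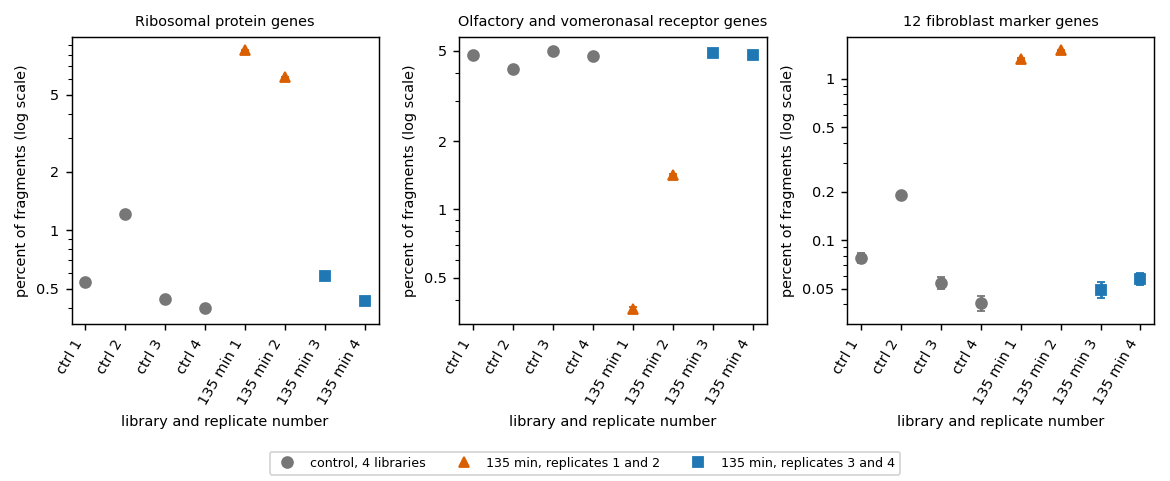
Percent of all fragments (y axes, log scale) in ribosomal protein genes (left), olfactory and vomeronasal receptor genes (middle) and 12 fibroblast marker genes (right) in each of the 8 libraries (x axes); error bars are 95% Wilson intervals and are mostly smaller than the symbols. Treated replicates 1 and 2 (triangles) stand apart from the controls in all 3 panels, with ribosomal protein shares of 8.48% and 6.17%, and treated replicates 3 and 4 (squares) lie within or close to the range of the controls (circles).

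Across all tested genes, none was called. By edgeR's quasi-likelihood test, 0 of 6606 genes (0%) passed an adjusted p of 0.05 as higher in the treated libraries and 0 (0%) as lower, and the smallest adjusted p was 0.519. Before adjustment, 609 genes with a higher level (9.22%) and 21 with a lower level (0.318%) had a p under 0.05. The variation between replicates was 96% of the mean. The median log2 fold change of all tested genes was 0.14 with TMM scaling and 0.02 with RLE scaling. It was 0.03 without treated replicates 1 and 2. Over all fits it ranged from -0.4 without treated replicates 3 and 4 to 0.26 with the ribosomal protein share as a covariate. The genes tested differ between some fits. A fold change is to be read against the centre of its own fit. Without treated replicates 1 and 2, 16 of 8951 genes were higher and 114 lower at that unadjusted p, and without replicates 3 and 4, 1306 of 9759 genes were higher and 87 lower; none passed the adjusted threshold in either case. DESeq2 called 1 gene, Hspa1b, at a log2 fold change of 5.16 (adjusted p = 0.00312), whereas the adjusted p of this gene was 0.294 to 1 in the edgeR fits made as alternatives.

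The position of each library was also read gene by gene. Of 22277 genes with a fragment in any of the 8 libraries, 230 (1.03%) had all 4 treated libraries above all 4 controls in counts per 1000000 fragments of tested genes (CPM) after TMM scaling, and 1545 (6.94%) had all 4 below. Taken as pairs, treated replicates 1 and 2 were both above every control for 3400 genes (15.3%) and both below for 6129 (27.5%). For replicates 3 and 4 these counts were 1477 (6.63%) and 3473 (15.6%). These shares of all genes are the background for the groups of genes that follow. Replicates 1 and 2 were both above every control for 91.7% of the fibroblast markers and 90% of the structural and housekeeping genes. These shares were higher than in any list of stress genes.

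Most genes on the chaperone list lay above control in treated replicates 1 and 2, and few did in replicates 3 and 4. The list is mostly of cytosolic chaperones, which bind unfolded chains and include the classical targets of Hsf1, and it also holds the mitochondrial chaperones Hspd1 (Hsp60) and Hspe1 (Hsp10). Of 21 measured chaperone genes, replicates 1 and 2 were both above every control for 18 (85.7%, against 15.3% of all genes), with a median difference from control of 3.73 on the log2(CPM + 1) scale (all genes -1.08). Replicates 3 and 4 were both above for 3 genes (14.3%, against 6.63%) and both below for 3 (14.3%, against 15.6%). Their median difference was 0.16 (all genes -0.94). The chaperone genes were not alone in this, since replicates 1 and 2 were also both above every control for 11 of the 12 fibroblast markers (median difference 4.27) and for 9 of 10 structural and housekeeping genes (3.66), and the part of library composition in the chaperone values was not tested.

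Hspa1b encodes the inducible Hsp70 and was the only gene that any test called. Its level was 30.2, 56.9, 44.2 and 23.5 CPM in control replicates 1 to 4 and 5810, 1240, 44.4 and 62.4 CPM at 135 min. Treated replicates 1 and 2 lay far above every control, replicate 4 just above the highest, and replicate 3 among them. The log2 fold change was 5.53 (SE 1.63, edgeR adjusted p = 0.519), and it was 6.32 with treated replicates 1 and 2 alone and 0.39 (SE 1.44) with replicates 3 and 4 alone. Hspa1b (chr17:35093381-35096183, minus strand, mm9) has a near copy beside it, Hspa1a, and how fragments were shared out between the pair is uncertain. Hspa1a had 0 to 21.4 CPM in control and 0 to 45.8 CPM at 135 min.

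Hsph1 encodes Hsp110, a nucleotide exchange factor of Hsp70, and was higher than every control in all 4 treated libraries. It had 38.4, 46.0, 42.8 and 44.2 CPM in control and 617, 1580, 111 and 69.4 CPM at 135 min. The groups did not overlap, although replicates 3 and 4 came much closer to the controls than replicates 1 and 2 did. The log2 fold change was 3.79 (SE 1.34, edgeR adjusted p = 0.519), and 1.0 (SE 1.48) with replicates 3 and 4 alone. The gene lies at chr5:150416862-150438951 on the minus strand (mm9).

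The bases just upstream are shown for Hspa1b and Hsph1, the known targets of Hsf1 described above. Those of Mt2 are shown too, a metal-responsive gene that, like Hsph1, was above control in every treated library. The part of Hsf1 in these levels was not tested. Each is the 250 bases before the start of the gene, 5′ to 3′ on the gene's strand, from RefSeq on build GRCm38.p6. Capitals mark the inverted repeat cores GAANNTTC or TTCNNGAA of the heat shock element in the first 2. In Mt2 they mark TGCNCNC on either strand. This pattern is looser than the core of the metal response element, so a match need not be such a core. The positions are chr17:34959239-34959488 (minus strand), chr5:149636337-149636586 (minus strand) and chr8:94172368-94172617 (plus strand).
Hspa1b: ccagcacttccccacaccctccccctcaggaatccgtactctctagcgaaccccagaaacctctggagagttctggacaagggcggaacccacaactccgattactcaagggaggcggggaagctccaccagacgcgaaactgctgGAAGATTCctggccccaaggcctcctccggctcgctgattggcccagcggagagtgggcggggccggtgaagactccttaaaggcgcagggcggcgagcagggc
Hsph1: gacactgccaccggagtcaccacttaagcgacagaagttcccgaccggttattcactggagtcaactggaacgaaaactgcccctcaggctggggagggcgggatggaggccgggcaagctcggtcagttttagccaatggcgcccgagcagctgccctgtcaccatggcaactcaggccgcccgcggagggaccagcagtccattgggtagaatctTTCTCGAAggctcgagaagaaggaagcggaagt
Mt2: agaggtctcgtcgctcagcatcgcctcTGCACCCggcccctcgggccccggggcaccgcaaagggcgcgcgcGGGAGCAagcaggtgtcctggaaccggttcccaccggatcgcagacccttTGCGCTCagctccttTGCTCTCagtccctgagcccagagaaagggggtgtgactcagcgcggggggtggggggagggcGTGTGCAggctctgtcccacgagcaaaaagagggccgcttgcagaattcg
The match begins 104 bases upstream of the start in Hspa1b and 33 bases upstream in Hsph1. Mt2 has 5 matches, which begin 223, 178, 128, 113 and 50 bases upstream. A heat shock element core occurs in 14.5% of the 27025 genes with such a window and the looser metal response pattern in 47.2%. A match is thus a description of the letters only.

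Among the other chaperones, Hspa8, the constitutive Hsc70, had 135 to 195 CPM in control and 3280, 6580, 215 and 248 CPM at 135 min. All 4 treated libraries lay above all controls, by little in replicates 3 and 4 (log2 fold change 3.90, SE 1.75, and 0.35 with replicates 3 and 4 alone). Hsp90aa1, the inducible cytosolic Hsp90, had 101 to 517 CPM in control and 21000, 7780, 553 and 307 CPM at 135 min, so that 3 of the 4 treated libraries were above every control. Chordc1, an Hsp90 co-chaperone, had 16.5, 25.7, 21.4 and 0 CPM in control and 293, 243, 29.6 and 41.6 CPM at 135 min, again with no overlap. The co-chaperone Bag3 had 23.3 to 62.1 CPM in control and 253, 179, 79.6 and 55.5 CPM at 135 min, where replicate 4 fell within the controls. Dnajb1, an Hsp40, had 38.7 to 63.1 CPM in control and 197, 157, 42.6 and 40.2 CPM at 135 min. The 3 chaperone genes for which replicates 1 and 2 were not both above control were Hspa1a, Hspb1 and Fkbp4.

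**Figure D2:**
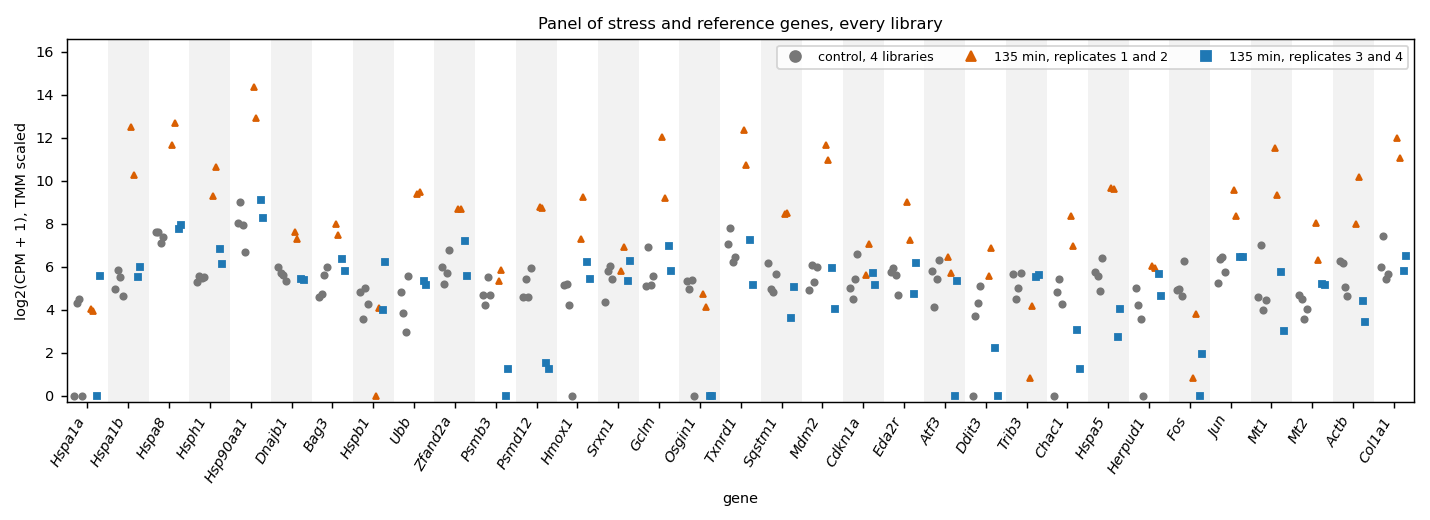
Level of each of 33 stress and reference genes (x axis) in log2(CPM + 1) after TMM scaling (y axis), with 1 symbol per library. Triangles (135 min, replicates 1 and 2) lie above the circles (control) for most genes, squares (135 min, replicates 3 and 4) mostly lie among or below them, and 5 genes (Hspa8, Hsph1, Hmox1, Jun and Mt2) have all 4 treated libraries above all 4 controls.

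Genes for ubiquitin and for the proteasome itself also differed between the pairs of treated libraries. Of 9 measured ubiquitin and AN1 zinc finger genes, treated replicates 1 and 2 were both above every control for 7 (77.8%, against 15.3% of all genes). Replicates 3 and 4 were both above for none, against 6.63% of all genes. Ubb, a polyubiquitin gene, had 6.69 to 45.6 CPM in control and 658, 712, 38.9 and 34.7 CPM at 135 min. The levels of replicates 3 and 4 fell within the range of the controls (log2 fold change 3.95, SE 1.7, edgeR adjusted p = 0.519, and 0.60, SE 1.87, without replicates 1 and 2). Zfand2a, an AN1-type zinc finger gene known to respond to arsenite and heat, had 35.2 to 110 CPM in control and 406, 410, 144 and 45.8 CPM at 135 min, with 3 of the 4 treated libraries above every control.

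Of 41 measured genes for proteasome subunits and activators, treated replicates 1 and 2 were both above every control for 28 (68.3%, against 15.3% of all genes). The median difference was 3.06 (all genes -1.08). Replicates 3 and 4 were both above for none, against 6.63% of all genes, and both below for 12 (29.3%, against 15.6%). Their median difference was -1.11 (all genes -0.94). Psmd12, a subunit of the regulatory lid, had 22.8 to 59.4 CPM in control and 433, 419, 1.85 and 1.39 CPM at 135 min. The treated libraries thus lay on both sides of the controls, and the sign of the log2 fold change followed the pair, with 2.54 (SE 1.51, edgeR adjusted p = 0.581) over all 4, 3.38 in replicates 1 and 2 alone and -4.54 in replicates 3 and 4 alone. The counts behind the last value were 1 fragment in each of these libraries, against 17, 31, 17 and 43 in the controls. Psmb3, a beta subunit of the core particle, had 17.6 to 44.2 CPM in control and 39.5, 56.4, 0 and 1.39 CPM at 135 min. Of the 6 genes for Nfe2l1 and its processing by p97, 2 had replicates 1 and 2 above every control (33.3%, against 15.3% of all genes). None had replicates 3 and 4 both above, against 6.63% of all genes.

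Antioxidant genes driven by Nrf2 held 2 of the genes that were above control in every treated library. For 9 of 15 (60%, against 15.3% of all genes) treated replicates 1 and 2 were both above every control (median difference 3.2, all genes -1.08). For Hmox1 and Gclc (13.3%, against 6.63% of all genes) replicates 3 and 4 were above as well. Hmox1, the heme-degrading enzyme heme oxygenase 1, had 34.3, 35.2, 17.4 and 0 CPM in control and 154, 605, 74.0 and 41.6 CPM at 135 min. The mean difference was 3.41 on the log2(CPM + 1) scale, to which the 0 in control replicate 4 adds (2.20 without that library), and the groups did not overlap (2-sided exact permutation test, p = 0.0286, the smallest possible, adjusted p = 0.143 over 10 panel genes). Gclc, the catalytic subunit of the enzyme that starts glutathione synthesis, had 28.1 to 51.1 CPM in control and 768, 290, 74.0 and 66.6 CPM at 135 min. The groups did not overlap (log2 fold change 2.94, SE 0.87, edgeR adjusted p = 0.519, and 0.77, SE 0.92, without replicates 1 and 2).

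The partner subunit Gclm had 32.9 to 119 CPM in control and 4220, 582, 124 and 55.5 CPM at 135 min, so that only replicate 4 fell within the controls (log2 fold change 4.41, SE 1.44, edgeR adjusted p = 0.519). This fold change was 2.49 without replicate 1 and 0.53 (SE 1.29) without replicates 1 and 2. Thioredoxin reductase 1 (Txnrd1) had 73.6 to 222 CPM in control and 5270, 1720, 152 and 34.7 CPM at 135 min. Here replicate 4 lay below every control, and the log2 fold change of 3.81 became -0.55 without replicates 1 and 2. The autophagy receptor gene Sqstm1 showed the same turn, from 2.08 to -1.10. Srxn1, which repairs oxidized peroxiredoxins, overlapped between the groups (log2 fold change 0.69, SE 0.79, and 0.28, SE 1.08, without replicates 1 and 2), and Osgin1 was at 0 in control replicate 4 and in treated replicates 3 and 4.

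Among the targets of p53, replicates 1 and 2 were both above every control for 5 of 16 genes (31.2%, against 15.3% of all genes). Replicates 3 and 4 were both above for 1 (6.25%, against 6.63%), Phlda3, which is named here after its values were seen. Mdm2, the ubiquitin ligase of p53, had 28.8 to 66.3 CPM in control and 3270, 2000, 61.1 and 15.3 CPM at 135 min. The 4 treated libraries spanned the controls, with replicate 3 among them and replicate 4 below, and the log2 fold change of 4.78 (SE 1.63, edgeR adjusted p = 0.519) was -0.43 (SE 1.55) in replicates 3 and 4 alone. The cyclin-dependent kinase inhibitor gene Cdkn1a overlapped between the groups (21.7 to 96.7 CPM in control, and 48.6, 133, 51.8 and 34.7 CPM at 135 min). Eda2r, a receptor of the tumor necrosis factor family, had 24.9 to 60.9 CPM in control and 516, 150, 25.9 and 70.8 CPM at 135 min, with 3 treated libraries above every control.

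The list of the integrated stress response holds 13 genes, and that of chaperones and degradation factors of the endoplasmic reticulum (ER) 14. None of these genes was above control in all 4 treated libraries, an order that 1.03% of all genes had. At that share most lists this short would hold none. Replicates 1 and 2 were both above for 7 of 13 genes of the first group (53.8%, median difference 1.71) and for 8 of 14 of the second (57.1%, 2.16). Over all genes these values were 15.3% and -1.08. In replicates 3 and 4 the median differences were -1.92 and -0.29, beside -0.94 over all genes. Xbp1 was the 1 gene of the second group that both had above every control (7.14%, against 6.63% of all genes). Hspa5 (BiP), the main ER chaperone, had 28.1 to 84.2 CPM in control and 801, 777, 5.55 and 15.3 CPM at 135 min, so replicates 3 and 4 lay below every control. Its log2 fold change was 2.92 (SE 1.5, edgeR adjusted p = 0.523) over all 4 treated libraries and -2.39 without replicates 1 and 2. Herpud1, an ER degradation component, had 31.6, 17.6, 10.7 and 0 CPM in control and 65.3, 60.6, 50.0 and 23.6 CPM at 135 min (mean difference 2.37 on the log2(CPM + 1) scale, exact permutation test, p = 0.0571, adjusted p = 0.19). The 0 in control replicate 4 adds to this difference, which was 1.31 without that library. Ddit3 (CHOP), Atf3, Chac1 and Trib3 overlapped between the groups, with mean differences of 0.38, -1.04 and 1.30 for the first 3 (exact permutation tests, adjusted p of 0.794 to 0.886) and a log2 fold change of -0.50 (SE 1.29) for Trib3.

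Immediate early genes, the fast targets of growth factor and stress kinases, differed among themselves. Fos was lower than every control in all 4 treated libraries, with 28.8, 29.8, 24.1 and 75.9 CPM in control and 0.759, 12.9, 0 and 2.78 CPM at 135 min. It was the 1 panel gene with all 4 treated libraries below all 4 controls (6.94% of all genes; mean difference -3.56 on the log2(CPM + 1) scale, exact permutation test, p = 0.0286, adjusted p = 0.143). Jun, which encodes a binding partner of Fos, had 37.1 to 85.6 CPM in control and 748, 329, 87.0 and 86.0 CPM at 135 min. Replicates 3 and 4 were above the highest control by so little that the order did not hold in unscaled CPM, where the controls reached 71.8 and replicate 4 had 70.4. Over the 18 immediate early genes the median difference was -0.43 in replicates 1 and 2 and -0.99 in replicates 3 and 4, beside -1.08 and -0.94 over all genes.

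Metallothioneins bind zinc and copper and are induced through Mtf1. Mt2 had 24.7, 21.7, 10.7 and 15.2 CPM in control and 262, 79.0, 35.2 and 34.7 CPM at 135 min, above every control in each treated library (log2 fold change 2.51, SE 1.10, edgeR adjusted p = 0.519, and 0.88, SE 1.35, without replicates 1 and 2). Its neighbour Mt1 had 14.7 to 126 CPM in control and 2910, 648, 53.7 and 6.94 CPM at 135 min, with replicate 4 below every control. Of 13 targets of NF-kappaB, which is held inactive by a proteasome substrate, 3 had replicates 1 and 2 both above every control (23.1%, against 15.3% of all genes). None had replicates 3 and 4 both above, against 6.63% of all genes, and counts this small are a description only. The chemokine gene Ccl2, named after its values were seen, had 48.0, 81.2, 10.7 and 0 CPM in control and 9820, 971, 61.1 and 6.94 CPM at 135 min, so that the controls themselves spread widely and replicates 3 and 4 fell among them.

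Reference genes moved with the pairs as well. Col1a1 had 41.5 to 169 CPM in control and 4050, 2160, 55.5 and 90.2 CPM at 135 min, a log2 fold change of 4.30 (SE 1.76, edgeR adjusted p = 0.519) that was -0.23 without replicates 1 and 2. The cytoskeletal gene Actb had 23.5 to 75.5 CPM in control and 255, 1140, 20.4 and 9.71 CPM at 135 min. Gapdh, a glycolytic enzyme, was the 1 of 10 structural and housekeeping genes for which replicates 1 and 2 were not both above, with 384 to 605 CPM in control and 327, 460, 355 and 455 CPM at 135 min. Ribosomal protein genes gave the same picture gene by gene. For 69 of 81 (85.2%, against 15.3% of all genes) replicates 1 and 2 were both above every control (median difference 4, all genes -1.08). For 4 (4.94%, against 6.63% of all genes) replicates 3 and 4 were too, namely Rpl15, Rpl17, Rpl8 and Rps25. Because the RNA was bulk, less RNA per cell and fewer cells of a kind cannot be told apart in any of these levels.

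**Figure D3:**
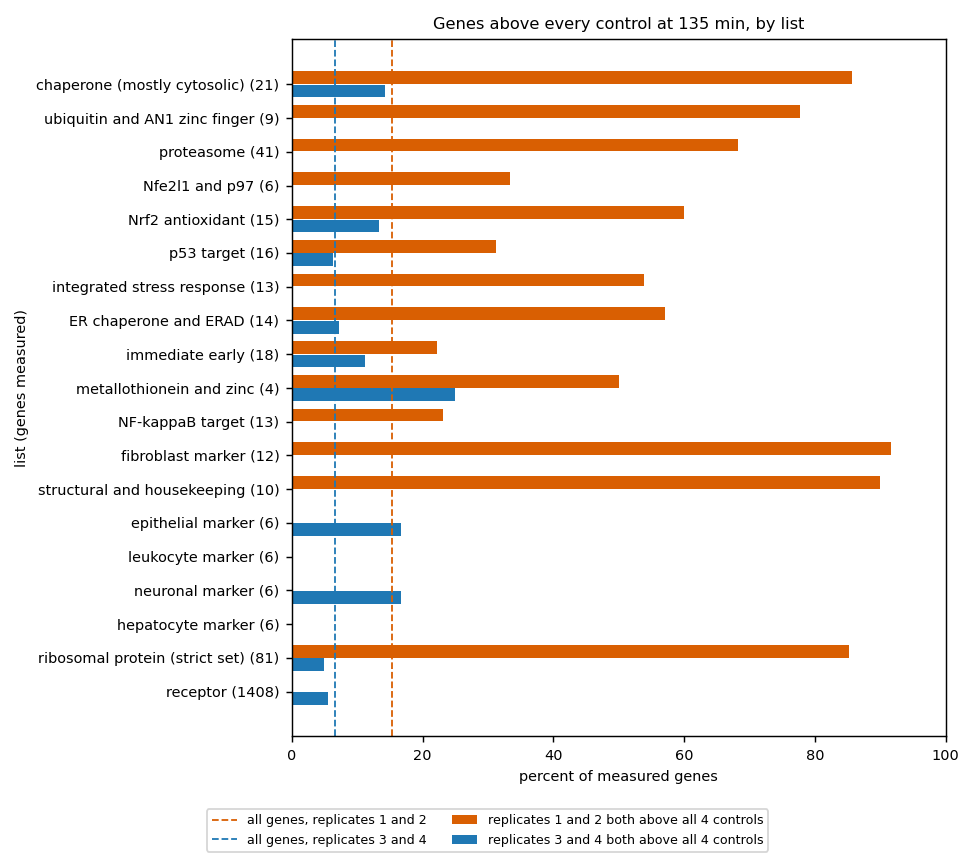
Percent of the measured genes of each list (x axis; the number measured is in parentheses on the y axis) for which both libraries of a pair lay above all 4 controls, with bars for replicates 1 and 2 (orange) and replicates 3 and 4 (blue) and dashed lines for all genes (15.3% and 6.63%). The orange bars of the chaperone, proteasome, ribosomal protein, fibroblast and housekeeping lists reach from 68.3% to 91.7%, while the blue bars stay at or below 25%.

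Over the panel, 22 of the 23 genes in the fit that are reported here had a positive log2 fold change (55.5% of all tested genes did) and 15 had an unadjusted p under 0.05 (9.22% of all tested genes were higher at that p). In the fit without replicates 1 and 2, 12 of the 23 were positive and the rest negative. Of the 8951 genes tested in that fit 48.5% were negative, a near-even split like that of the panel. In the panel 1 gene, Psmd12, had an unadjusted p under 0.05, in the negative direction.

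**Figure D4:**
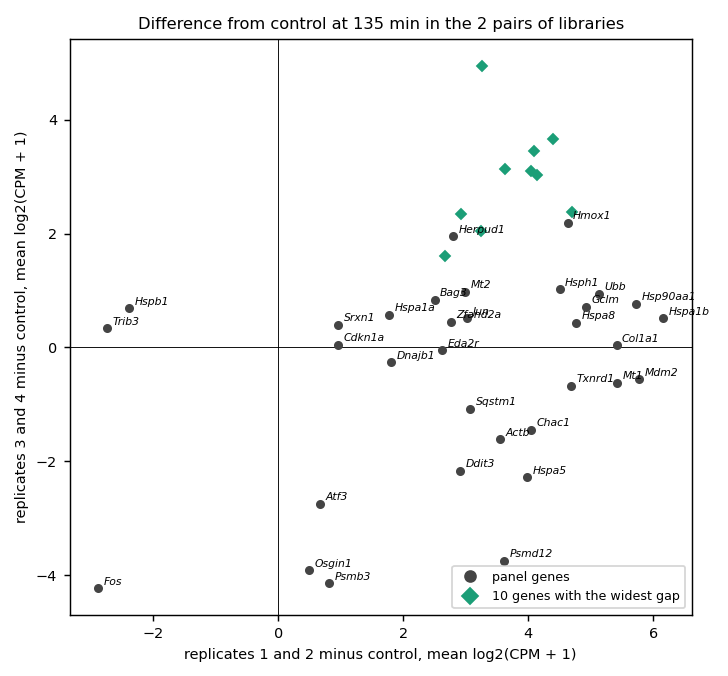
Mean difference from control in log2(CPM + 1) for treated replicates 3 and 4 (y axis) against that for treated replicates 1 and 2 (x axis), for 33 panel genes (circles, named) and the 10 genes with the widest gap above control in all 4 treated libraries (diamonds). Most panel genes lie far to the right and near or below 0 on the y axis (Hspa1b at 6.16 and 0.51, Hspa5 at 3.98 and -2.28), whereas the diamonds, which were chosen for being above control in every treated library, lie between 1.60 and 4.95 on the y axis.

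Genes above control in all 4 treated libraries, replicates 3 and 4 included, were then taken as a set. Of the 230 genes, 139 also held this order in CPM over all fragments without scaling, and 138 of these had at least 10 fragments in every treated library. Of the 1408 measured receptor genes, 1 was among the 230 (0.071%, against 1.03% of all genes) and none was among the 138. The minimum of 10 fragments bears on this, since 1220 receptor genes were at 0 in treated replicate 1 and 1045 in replicate 3. The gap between the lowest treated library and the highest control on the log2(CPM + 1) scale ranged from 0.0158 to 1.71 with a median of 0.35. The median difference from control over the 138 was 2.54 in replicates 1 and 2 and 1.17 in replicates 3 and 4. Of the 138, 112 had a fragment in every library and were tested, and 81 had an unadjusted p under 0.05, values that the order of the libraries favours by itself and that are given as a description.

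The gene with the widest gap was Elovl5, an elongase of polyunsaturated fatty acids (chr9:77765171-77832326, plus strand, mm9). It had 24.7, 13.5, 14.7 and 16.6 CPM in control and 128, 143, 83.3 and 97.1 CPM at 135 min. The fold changes of the pairs of treated libraries differed by less than their errors (log2 fold change 2.70, SE 0.88, edgeR adjusted p = 0.519; 2.81 with replicates 1 and 2 alone and 2.30, SE 1.16, with replicates 3 and 4 alone). Adam10, a membrane protease that sheds Notch and growth factor precursors (chr9:70526804-70628036, plus strand, mm9), had 53.5, 44.7, 53.5 and 56.6 CPM in control and 375, 297, 168 and 151 CPM at 135 min. Its controls agreed closely, and the lowest treated library was well above them (log2 fold change 2.25, SE 0.80, and 1.55, SE 1.05, with replicates 3 and 4 alone).

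Rnf2, the catalytic ubiquitin ligase of Polycomb repressive complex 1, had 43.9, 51.5, 38.8 and 37.3 CPM in control and 797, 210, 265 and 121 CPM at 135 min (log2 fold change 3.02, SE 0.90, edgeR adjusted p = 0.519, and 2.09, SE 1.06, with replicates 3 and 4 alone). Usp16, which encodes a deubiquitinase of histone H2A, had 27.5, 39.3, 17.4 and 0 CPM in control and 197, 111, 104 and 107 CPM at 135 min. Both enzymes act on the same histone mark, in opposite directions. Tceal8 had 6.86, 14.9, 14.7 and 1.38 CPM in control and 271, 169, 42.6 and 41.6 CPM at 135 min (log2 fold change 3.79, SE 1.07, and 2.06, SE 1.23, with replicates 3 and 4 alone), and Acot13, a thioesterase, had 1.37 to 20.7 CPM in control and 115, 88.8, 51.8 and 52.7 CPM at 135 min (3.29, SE 1.21, and 2.67, SE 1.49). In each of these the 4 treated libraries lay above the controls without overlap, as the rule required.

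The remaining 4 of the 10 are given in fragments, and in each of them at least 1 control had none. Tbl1x, a component of the NCoR corepressor complex, had 1, 7, 3 and 0 fragments in control and 37, 318, 17 and 29 at 135 min. Ost4, a subunit of oligosaccharyltransferase, had 2, 6, 8 and 0 fragments in control and 109, 301, 54 and 22 at 135 min. Mrps31, a mitochondrial ribosomal protein, had 12, 25, 18 and 0 fragments in control and 485, 294, 52 and 60 at 135 min. The unnamed transcript 4833419F23Rik had 0, 0, 1 and 0 fragments in control and 27, 16, 20 and 27 at 135 min. It was the gene with the largest difference in replicates 3 and 4 among the 10 (4.95 on the log2(CPM + 1) scale, against 3.26 in replicates 1 and 2).

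**Figure D5:**
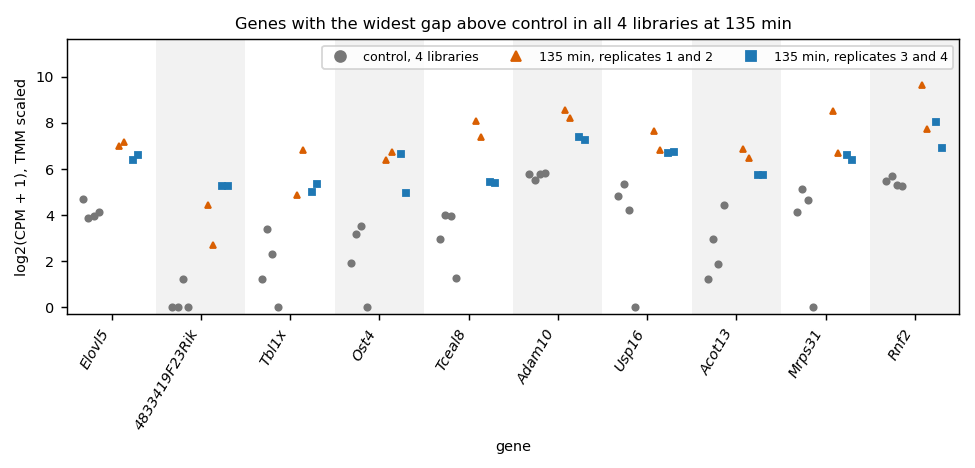
Level in log2(CPM + 1) after TMM scaling (y axis) of the 10 genes with the widest gap (x axis), with 1 symbol per library. By the rule that chose them, all 4 treated libraries (triangles, replicates 1 and 2; squares, replicates 3 and 4) lie above all 4 controls (circles).

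The stress genes of the 138 were Hsph1, Hspa8 and Chordc1 among the chaperones, Hmox1 and Gclc among the Nrf2 targets, and Mt2. Further genes of the set are given that were picked after their values were seen. They were the ER oxidoreductases P4hb (31 to 40 fragments in control and 731, 2273, 46 and 69 at 135 min) and Ero1l (25 to 65, and 412, 959, 66 and 120), and Ppp1r15b, a regulatory subunit of the phosphatase of eIF2alpha (86 to 103, and 526, 629, 88 and 155). The mitotic kinase gene Cdk1 had 5 to 50 fragments in control and 1302, 588, 117 and 65 at 135 min. Sox9, a transcription factor gene, had 40 to 80 in control and 396, 477, 122 and 176 at 135 min, with a difference of 1.47 in replicates 1 and 2 and 1.54 in replicates 3 and 4. The depth of the libraries differs, so these fragment counts are to be read against the totals given above.

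A window of 250 bases upstream was found in the RefSeq table for 103 of the 138 genes. The heat shock element core (GAANNTTC or TTCNNGAA) was in 11 of them (10.7%, against 14.5% of all 27025 genes). The looser metal response pattern (TGCNCNC) was in 57 (55.3%, against 47.2%) and the antioxidant response element core (TGACNNNGC) in 19 (18.4%, against 11.5%). Both forms of the heat shock element core read alike on either strand, and the other patterns were searched on both strands. Each gene was counted once however many matches it held. The 138 needed at least 10 fragments in every treated library, whereas the 27025 were not chosen by level. The sets are unlike in this, and its part in the shares was not tested. Hspa8 and Hmox1 are named here without a sequence.

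In the other direction, 1489 of the 1545 genes below every control in all 4 treated libraries also were so in unscaled CPM, and 1060 of these had at least 10 fragments in every control. For 869 of the 1060 at least 1 of treated replicates 1, 3 and 4 had 0 fragments. Of the 1408 measured receptor genes, 139 (9.87%, against 6.94% of all genes) were below every control before the minimum of 10 fragments. Only 34 of the 1408 were among the 1060, a smaller share than the 1060 made up of all 22277 measured genes. The 10 with the widest gap had 10 to 33 fragments in each control, 0 in treated replicate 1, 1 to 14 in replicate 2 and 0 or 1 in replicates 3 and 4. They included Sst, the somatostatin gene (10, 10, 13 and 11 fragments in control and 0, 4, 0 and 0 at 135 min), Rgs14, a regulator of G protein signaling (13, 17, 11 and 13, and 0, 5, 0 and 0), and the receptor genes Olfr53 and Vmn1r26. Treated replicate 1, with 3154062 fragments, had 0 in 49.5% of all genes, and replicate 3, with 570323, in 47.5%, and the part of this in the low values was not tested.

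Levels at the other times stand beside those at 135 min, with the same control libraries. In unscaled CPM, Hspa1b had 19.7 to 48.8 in control and 2430, 770, 42.1 and 51.1 in treated replicates 1 to 4 at 135 min. Its levels were 71.6, 163, 12.9 and 52.9 in the 45 min libraries, and those harvested at 405 min had 2830, 1290, 10100 and 5900. All 4 of the latter libraries lay far above the controls. Hsph1 had 258, 980, 105 and 56.8 at 135 min, 366, 110, 43.5 and 75.3 at the earlier time, and 5160, 205, 541 and 4510 at the later one. Elovl5 had 53.3, 88.4, 78.9 and 79.5 at 135 min, 95.1, 71.6, 14.3 and 9.61 at the earlier time, and 190, 33.8, 32.5 and 151 at the later one. At 45 min, too, replicates 1 and 2 had ribosomal protein shares of 8.34% and 9.42% and replicates 3 and 4 of 0.408% and 0.423%. At 405 min the shares were 6.78%, 0.907%, 4.25% and 8.59%. Replicates 3 and 4 at 135 min had ribosomal protein shares and Hspa1b levels close to those of the controls. The share of 0.907% and the Hspa1b level of 1290 CPM in 405 min replicate 2 are from 1 library. How the level of Hspa1b goes with the share was not tested.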

How the data were processed

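RNA of NIH3T3 cells expressing DD-sfGFP was sequenced on an Illumina HiSeq instrument. Per the labels, total RNA was extracted with an RNeasy kit and made into libraries with an Encore Complete kit; the study's methods also describe selection of poly(A) RNA and do not say how each library was made. For each library the authors deposited estimated counts (raw fragments per RefSeq gene) beside normalized columns that were not used. The methods name mouse assembly mm9 and the submitters' processing notes mm10; the aligner is not given in the sources used here. Gene positions were taken from GENCODE on mm9.

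Group and replicate came from the sample titles. Estimated counts were rounded to whole numbers. In 1 table outside this comparison, gene symbols turned into dates were restored from the row order. Genes with at least 1 fragment in each of the 8 libraries (6606 of 23356) were tested in edgeR 4.0.16 (quasi-likelihood F test, TMM factors; R 4.3.3), fitted to all 16 libraries with 1 mean per group (12 residual degrees of freedom), and called at a Benjamini-Hochberg adjusted p under 0.05. Standard errors are the log2 fold change over the square root of F. CPM are over the tested genes' fragments after TMM scaling, with a pseudocount of 1 on the log scale; unscaled CPM are over all fragments. The 10 panel genes with a 0 were compared by exact permutation tests of mean log2(CPM + 1). Intervals of shares are 95% Wilson intervals and cover counting error only, as fragments without molecular identifiers include PCR duplicates. No pair of the 8 libraries held identical values. The fit was tested on simulated counts.

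The genes named are a panel of 34, of which 1 is not reported here, and, in each direction, the 10 with the widest gap between groups that did not overlap in both scalings, with at least 10 fragments in each library of the higher group; others are marked where they are named. The comparison, the panel and the 18 lists were chosen with earlier results of these data known. Alternatives were RLE factors, 3 other filters, DESeq2 1.42.0, only the 8 libraries, the replicate number as a block, the log2 ribosomal protein share as a covariate, thinning to 570323 fragments, other pseudocounts, leaving out each library, and leaving out treated replicates 1 and 2 or, added after the data had been seen, 3 and 4.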

Additional observations from a re-analysis of the deposited data

Results flagged for a closer look

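Of 80 groups of 4 libraries examined for a single library far from the others, 1 stood out, against 4 expected by chance. Osgin1, an oxidative stress gene of the panel, was at 0 on the log2(CPM + 1) scale in control replicate 4 (0 fragments), whereas the other controls had 4.94 to 5.36. Control replicate 4 also had the largest share of genes at 0 among the controls (27.7%).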

How the results depend on the processing

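The absence of calls held in every alternative except DESeq2, which called 1 gene higher. The genes above every control in all 4 treated libraries (230) numbered 153 after thinning, 1477 without treated replicates 1 and 2, 3400 without replicates 3 and 4, and 293 to 860 when 1 library was left out (358 without control replicate 2, 762 without treated replicate 4 and 860 without treated replicate 3). Those below (1545) numbered 224 among genes with a fragment in each of the 8 libraries, 3473 without replicates 1 and 2, 6129 without replicates 3 and 4, and 1746 to 3443 with 1 library left out (2572 without control replicate 4, 2604 without treated replicate 3 and 3443 without treated replicate 4). Fewer libraries or fewer genes make such orders easier or harder by construction.

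With the ribosomal protein share as a covariate the log2 fold change turned for Psmd12 (-1.84), Sqstm1 (-0.47), Cdkn1a (-0.21), Trib3 (0.34), Hspa5 (-1.27), Mt1 (-0.35) and Actb (-1.25). Without treated replicates 1 and 2 it turned for Dnajb1 (-0.35), Psmd12 (-4.54), Txnrd1 (-0.55), Sqstm1 (-1.10), Mdm2 (-0.43), Cdkn1a (-0.20), Eda2r (-0.02), Trib3 (0.20), Hspa5 (-2.39), Mt1 (-0.72), Actb (-1.84) and Col1a1 (-0.23). With 1 library left out, ranges crossed 0 for Cdkn1a (-0.09 to 1.08), Ddit3 (-0.72 to 1.59), Hspb1 (-1.73 to 0.35) and Atf3 (-1.73 to 0.42). The cause was not tested.

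At an unadjusted p under 0.05, the counts of higher and lower genes were 609 and 21 in the reported fit, 406 and 46 with RLE factors, 887 and 153 with only the 8 libraries, 124 and 54 with the covariate, and 747 and 97 with DESeq2. With the replicate number as a block, 0 genes were called and the counts were 280 and 146. Deviations of libraries with the same number correlated with r = -0.005, 0.284, 0.167 and 0.111 across genes, so the numbers were not taken to pair the libraries. Without treated replicate 1, 82 genes were higher and 0 lower at that p.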
